A study of Rattus norvegicus with 20 samples.

Results

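The neuropeptide genes described here are 10 precursor genes, Sst, Npy, Cck, Vip, Pdyn, Penk, Tac1, Calca, Calcb and Nts, chosen by name as peptides of the cortex and the spinal cord. They are 10 of the 30443 genes in the table. Of these, 9 reached 1 FPKM, the count of sequenced fragments adjusted for gene length and library size, in at least 1 library and were tested. Npy did not reach it. FPKM is scaled by transcript length, so levels of different genes can be set side by side.

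The RNA came from 4 adult female Long-Evans rats of about 6 to 8 months, all wild type and all given a hemicontusion at C4 with a displacement of 0.7 mm. An electrode array was placed in the motor cortex opposite the injury 2 weeks later. In all 4 rats the current that evoked forelimb movement was tested through the array 1 week after that. The 2 stimulated rats then received current for 1 week, 5 hours a day at 10 Hz in cycles of 5 minutes on and 2 minutes off. It was set at 80% of the current that evoked forelimb movement. The 2 control rats were connected without current over that time. Each rat gave 5 pieces of tissue and so 5 libraries, 20 in all: subcortical white matter under the electrodes (region 1) and its counterpart on the other side (region 2), cord rostral to the injury (region 3), the injury site (region 4) and cord caudal to it (region 5). No uninjured rat was sequenced, so injury and cord level cannot be told apart between the cord regions. The same 4 rats gave the libraries of every region. Values of 1 region are given in the order control 1, control 2, stimulated 1 and stimulated 2.

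Neuropeptides are made as larger precursors, cut by prohormone convertases, stored in dense-core vesicles and released to act on G protein-coupled receptors. In the cortex, somatostatin and vasoactive intestinal peptide mark separate classes of inhibitory interneuron, and cholecystokinin is made by interneurons and many pyramidal cells. In the cord, enkephalin, dynorphin, neurotensin, somatostatin and substance P are peptides of dorsal horn interneurons, while calcitonin gene-related peptide (CGRP) is best known from primary afferents and motor neurons.

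Several of these genes are known to respond to neuronal activity through the cyclic AMP response element, written TGACGTCA, or its core TGACG. RefSeq promoters (assembly GRCr8, later than the Rnor6 build of the files; 250 bases before to 50 after the annotated gene start) were at hand for 7 of the 10 members: Sst, Npy, Vip, Pdyn, Tac1, Calca and Nts. The full element was in the Sst promoter, 1 of 7, against 1.83% of all 33469 promoters. The core on either strand, which the full element also holds, was in 5 of 7, against 21.2% of all promoters, and Npy and Pdyn had none in this window. A match is only a description of letters. The stretches that hold a match are shown because stimulation of the cortex is the treatment compared below, with the matched letters in capitals.
Sst, chr11:90461518-90461575, plus strand, element from base 3 after the annotated start: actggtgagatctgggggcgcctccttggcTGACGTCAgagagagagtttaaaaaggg
Vip, chr1:44470353-44470417, plus strand, core from base 97 before the start: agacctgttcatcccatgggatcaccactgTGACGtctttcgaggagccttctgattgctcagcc
Calca, chr1:178317607-178317671, minus strand, core from base 112 before the start: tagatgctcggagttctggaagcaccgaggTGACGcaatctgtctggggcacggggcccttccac
Nts, chr7:39461025-39461089, minus strand, core in reverse from base 171 before the start: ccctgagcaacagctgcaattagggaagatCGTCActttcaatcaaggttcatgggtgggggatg
Tac1, chr4:36645347-36645411, plus strand, core in reverse from base 206 before the start: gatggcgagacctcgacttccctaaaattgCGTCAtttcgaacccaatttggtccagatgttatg

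The libraries labelled subcortical white matter held markers of cortical neurons. All 10 cortical glutamatergic neuron genes tested, among them Slc17a7 and Tbr1, were higher there than in the cord, and their summed FPKM was 538 to 904 in white matter libraries against 17.6 to 43.8 in cord libraries. The summed FPKM of 10 oligodendrocyte genes was 783 to 3271 in white matter libraries and 7901 to 11428 in cord libraries. Levels of neuronal peptides in regions 1 and 2 are therefore levels in tissue with cortical neuron RNA. The table gives no read counts, so counting error is unknown, and in bulk tissue fewer cells of a type and less RNA per cell cannot be told apart.

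The 9 tested genes split by tissue (see the plot of FPKM by region). Cck, Vip, Sst and Pdyn were higher in white matter libraries and Penk, Tac1, Nts, Calca and Calcb were higher in cord libraries, each by limma over all 20 libraries. For Cck, Vip, Nts, Calca and Calcb the 8 white matter and 12 cord libraries did not overlap, 5 of 9 beside 27.1% of all genes. Of all 15210 genes tested, 25% were higher and 47.1% lower in white matter, so passing this test sets a gene apart little, and the sizes are the description. The median log2 difference was -1.32 over the 9 members and -0.18 over all genes. Quantile normalization moved the median of all genes to -0.05 and the shares to 33.2% higher and 39.6% lower, and all 9 members were called the same way.

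**Figure D1:**
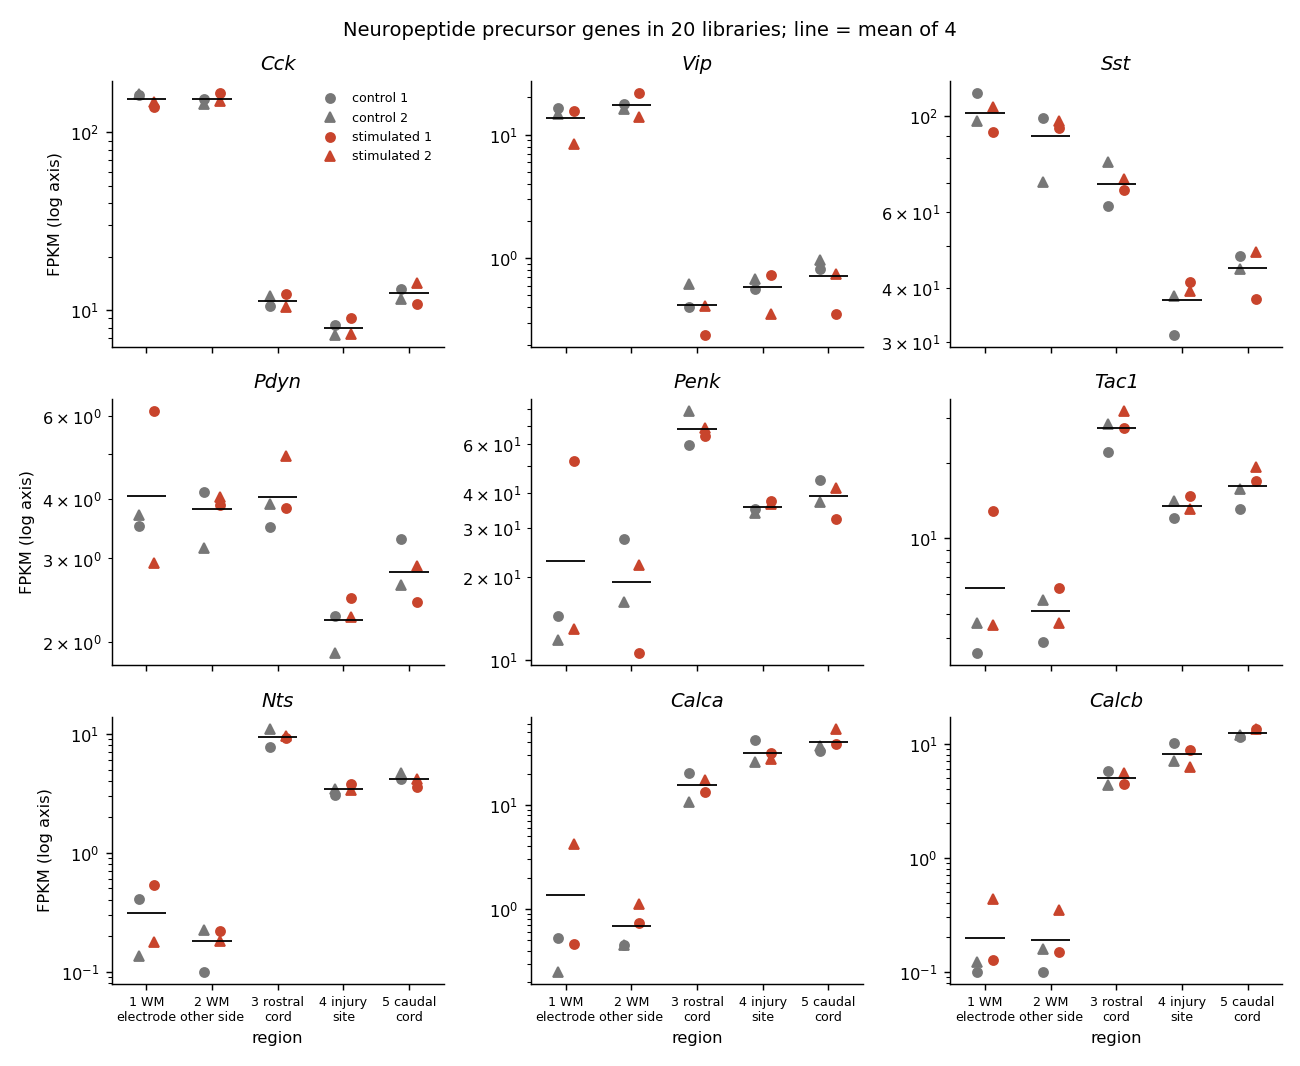
FPKM on a log axis (vertical) of the 9 tested genes in each of the 5 regions (horizontal); grey points are control and red points stimulated animals, circles animal 1 and triangles animal 2, and the line is the mean of 4 libraries. Cck lies between 139 and 166 FPKM in regions 1 and 2 and between 7.25 and 14.3 in the cord, and Calcb lies between 0.1 and 0.433 in regions 1 and 2 and between 4.37 and 13.3 in the cord.

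Cck, the cholecystokinin precursor, was the most abundant member in the brain tissue. Its FPKM was 161, 163, 139 and 148 in region 1 and 154, 144, 166 and 149 in region 2. In the cord it was 10.5, 12.0, 12.4 and 10.4 in region 3, 8.26, 7.25, 9.11 and 7.38 in region 4, and 13.2, 11.5, 10.8 and 14.3 in region 5. The lowest white matter library was thus far above the highest cord library, and region 4 was below both other cord regions in every library. The level was 14.8-fold higher in white matter (log2 difference 3.88, SE 0.06, limma adjusted p = 7.18e-20). Its mean stood above 99% of all genes tested in white matter and above 67.6% in the cord.

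Vip, the precursor of vasoactive intestinal peptide, was measured mainly in the brain tissue. Its FPKM was 16.4, 14.7, 15.5 and 8.38 in region 1 and 17.7, 16.2, 21.7 and 14.0 in region 2. Its cord values were 0.403, 0.615, 0.238 and 0.408 in region 3, 0.559, 0.682, 0.727 and 0.353 in region 4, and 0.811, 0.963, 0.355 and 0.748 in region 5. The tissues did not overlap, no cord library reached 1 FPKM, and the lowest brain value was that of stimulated 2 in region 1. The log2 difference was 4.83 (SE 0.21, limma adjusted p = 1.36e-13), a 28.5-fold higher level in white matter. A floor of 0.5 FPKM or log2(FPKM + 1) shrank it to as little as 3.37.

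Sst, the somatostatin precursor, was abundant in both tissues. Its FPKM was 113, 97.3, 91.5 and 105 in region 1 and 98.9, 70.2, 93.8 and 97.3 in region 2. In the cord it was 61.8, 78.3, 67.2 and 71.5 in region 3, 31.1, 38.2, 41.2 and 39.4 in region 4, and 47.4, 44.2, 37.6 and 48.4 in region 5. White matter and cord overlapped only through control 2 in region 2, at 70.2, which lay below the 2 highest libraries of region 3. The level was 1.96-fold higher in white matter (log2 difference 0.97, SE 0.08, limma adjusted p = 1.41e-09). Sst stood above 97.9% of all genes tested in white matter and above 94.5% in the cord.

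Pdyn, the precursor of the dynorphins that act on kappa opioid receptors, was low in both tissues. Its FPKM was 3.51, 3.71, 6.14 and 2.93 in region 1 and 4.14, 3.16, 3.90 and 4.06 in region 2. Cord libraries held 3.50, 3.92, 3.83 and 4.95 in region 3, 2.26, 1.89, 2.48 and 2.26 in region 4, and 3.30, 2.64, 2.42 and 2.90 in region 5. The tissues overlapped, since region 3 was as high as the brain regions. White matter was 1.32-fold higher (log2 difference 0.40, SE 0.12, limma adjusted p = 0.00423).

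Penk, the enkephalin precursor, was 2.49-fold higher in the cord. Its FPKM was 14.4, 11.8, 52.1 and 12.9 in region 1 and 27.4, 16.3, 10.6 and 22.0 in region 2. In the cord it was 59.5, 78.8, 64.3 and 68.8 in region 3, 34.9, 33.8, 37.3 and 36.6 in region 4, and 44.5, 37.1, 32.3 and 41.8 in region 5. Stimulated 1 in region 1, at 52.1, was the 1 brain library within the range of the cord. The log2 difference, white matter minus cord, was -1.32 (SE 0.22, limma adjusted p = 3.26e-05), and -1.57 without that library.

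Tac1, the precursor of substance P and neurokinin A, was 3.44-fold higher in the cord. Its FPKM was 3.47, 4.58, 12.8 and 4.48 in region 1 and 3.86, 5.64, 6.32 and 4.56 in region 2. Its cord values were 22.1, 28.4, 27.4 and 32.0 in region 3, 12.0, 14.1, 14.8 and 13.0 in region 4, and 13.1, 15.7, 16.9 and 19.2 in region 5. Again stimulated 1 in region 1 was the 1 brain library that reached the cord's range. The log2 difference was -1.78 (SE 0.18, limma adjusted p = 3.87e-08), and -1.98 without it.

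Nts, the neurotensin precursor, was at or near the table's floor of 0.1 FPKM in brain libraries. Its FPKM was 0.407, 0.134, 0.534 and 0.176 in region 1 and 0.1, 0.222, 0.218 and 0.181 in region 2. Cord libraries held 7.77, 10.9, 9.28 and 9.57 in region 3, 3.02, 3.46, 3.80 and 3.39 in region 4, and 4.16, 4.69, 3.55 and 4.16 in region 5. The tissues did not overlap, and region 3 stood apart from both other cord regions. The log2 difference was -4.56 (SE 0.21, limma adjusted p = 5.26e-13), which the floor partly sets, since it ranged from -4.79 to -2.31 over the alternatives.

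Calca and Calcb encode alpha-CGRP and beta-CGRP. Calca also gives calcitonin by alternative splicing, which a value per gene does not separate, and how reads shared by these close relatives were assigned is not given in the sources used here. Calca FPKM was 0.53, 0.252, 0.46 and 4.18 in region 1 and 0.452, 0.449, 0.734 and 1.11 in region 2. In the cord it was 20.3, 10.6, 13.4 and 17.2 in region 3, 41.8, 25.6, 31.9 and 27.4 in region 4, and 32.7, 37.1, 38.7 and 53.1 in region 5. The tissues did not overlap, the highest brain value was that of stimulated 2 in region 1, and region 3 was the lowest cord region in every library. The log2 difference was -5.29 (SE 0.36, limma adjusted p = 1.54e-10), and -5.85 without the 2 brain libraries of stimulated 2, a setting added after the data were seen.

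Calcb FPKM was 0.1, 0.122, 0.126 and 0.433 in region 1 and 0.1, 0.158, 0.149 and 0.344 in region 2. Its cord values were 5.77, 4.37, 4.39 and 5.51 in region 3, 10.1, 7.09, 8.77 and 6.24 in region 4, and 11.4, 11.8, 13.3 and 13.3 in region 5. The 3 cord regions did not overlap and stood in order from rostral to caudal, and both brain regions had their highest value in stimulated 2. The log2 difference was -5.58 (SE 0.24, limma adjusted p = 1.46e-13). It ranged from -6.07 to -2.92 over the alternatives, the smallest sizes coming with a higher floor or pseudocount. Within cord libraries Calca exceeded Calcb by a ratio of 3.03 ± 0.45 in region 3, 3.94 ± 0.38 in region 4 and 3.23 ± 0.52 in region 5 (SD, n = 4).

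Npy, the neuropeptide Y precursor and an abundant peptide of cortical interneurons, was listed at the floor of 0.1 FPKM in all 20 libraries. Ribosomal protein genes, which every cell uses, were listed at the floor in all libraries for 4 of 98 symbols (Rpl38, Rpl7a, Rpl8 and Rps6), so a listed floor can be a failed estimate, and no statement on the level of Npy is made. Receptors of neuropeptide Y were measured: Npy1r had a mean of 7.12 FPKM in white matter and 2.6 in the cord, and Npy5r 1.67 and 1.48.

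The make-up of the peptide precursor RNA differed by tissue. The summed FPKM of the 9 genes averaged 304 ± 14.8 in region 1 and 289.9 ± 23.4 in region 2, and 211 ± 16.5, 140.5 ± 8.06 and 172.5 ± 18.0 in regions 3, 4 and 5 (SD, n = 4). Cck made 50.6% of the sum in region 1 and 53% in region 2, but 5.39%, 5.68% and 7.21% in regions 3, 4 and 5. The Sst share stayed within 25.8% and 33.6% in all 5 regions. The Penk share was 32.2% in region 3, 25.4% in region 4 and 22.6% in region 5, while that of Calca was 7.42%, 22.4% and 23.3%.

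**Figure D2:**
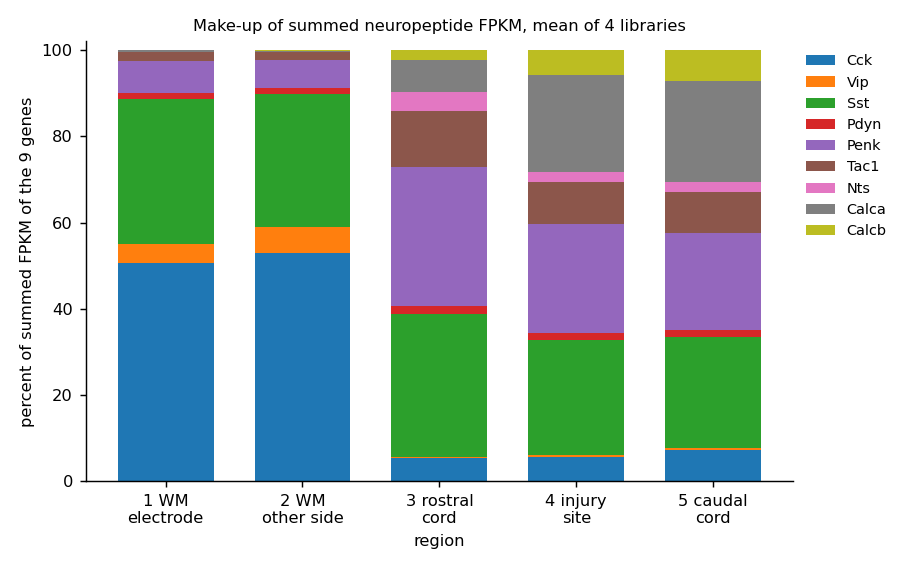
Percent of the summed FPKM of the 9 tested genes (vertical) that each gene contributed in each region (horizontal), as means of 4 libraries; colours stand for genes. Cck takes 50.6% and 53% in regions 1 and 2, and in the cord Sst and Penk lead region 3 with 33.1% and 32.2% while Calca reaches 22.4% and 23.3% in regions 4 and 5.

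Of the 23 receptor genes of these peptides and related ones tested, 11 were higher and 11 lower in white matter than in the cord by limma, beside 25% of all genes higher and 47.1% lower. The somatostatin receptors Sstr4 (15.5-fold), Sstr1 (3.67-fold), Sstr2 (3.01-fold) and Sstr3 (2.46-fold), the cholecystokinin receptor Cckbr (3.96-fold) and the vasoactive intestinal peptide receptor Vipr1 (15.1-fold) were higher in white matter, with their ligands. The kappa opioid receptor Oprk1 (7.97-fold), the mu opioid receptor Oprm1 (3.16-fold), the CGRP receptor Calcrl (3.53-fold) and the substance P receptor Tacr1 (2.67-fold) were lower there. The pairing was not complete: Oprd1, an enkephalin receptor, was 2.24-fold higher and Ramp1, which joins Calcrl in the CGRP receptor, 1.72-fold higher in white matter, opposite to Penk and to the CGRP genes, and Oprk1 was lower while Pdyn was higher.

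Beside the same shares of all genes, 4 of the 16 other neuropeptide precursors tested were higher and 11 lower in white matter, with Grp (4.73-fold) and Crh (4.04-fold) the largest among the higher and Nmu (16.2-fold) and Cartpt (15.1-fold) among the lower. Among 18 genes for peptide processing and dense-core vesicles, 10 were higher and 6 lower in white matter. Cadps2, a vesicle priming factor, was 4.7-fold higher and Pcsk2, a prohormone convertase, 2.98-fold higher. Qpct, which forms pyroglutamate at peptide ends, was 3.53-fold lower and Scg2, a secretogranin, 2.45-fold lower.

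Regions 1 and 2 did not differ in any of the 9 members past the threshold. Limma called 0 of 9, with adjusted p from 0.245 to 0.993 and 0 of 9 at an unadjusted p under 0.05, against 6.86% of all genes higher and 1.76% lower in region 1. Every member's libraries overlapped between the 2 sides, where 7.57% of all genes did not overlap, and the log2 differences ran from -0.37 for Vip to 0.64 for Nts, with a median of 0.05 beside 0.06 over all genes. For Cck, the best measured, the difference was 0.00 with an SE of 0.10. Quantile normalization gave 6.2% higher and 5.53% lower over all genes and also called 0 members.

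Within the cord, 2 opposite patterns appeared between the rostral piece and the injury site. Sst, Pdyn, Penk, Tac1, Nts and Cck were lower in region 4 than in region 3 in every library, while Calca and Calcb were higher in every library, so 8 of 9 did not overlap beside 28.8% of all genes. Limma over all 20 libraries called 5 of 9 lower and 0 higher, against 12.8% of all genes lower and 6.78% higher. The median log2 difference was -0.86 over the 9 members and -0.02 over all genes. Upper-quartile scaling gave 16.4% of all genes lower and 13.9% higher and called the same count of 5 members.

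Nts showed the largest difference, with 9.37 ± 1.27 FPKM in region 3 and 3.42 ± 0.32 in region 4 (SD, n = 4; log2 difference -1.45, SE 0.33, limma adjusted p = 0.00578). Tac1 was 27.5 ± 4.12 against 13.5 ± 1.21 (log2 difference -1.02, SE 0.28, limma adjusted p = 0.0161). Sst was 69.7 ± 6.97 against 37.5 ± 4.41 (log2 difference -0.90, SE 0.12, limma adjusted p = 0.000164). Pdyn and Cck followed with smaller levels. Pdyn differed by -0.86 (SE 0.18, limma adjusted p = 0.00291) and Cck by -0.50 (SE 0.10, limma adjusted p = 0.00183). The call for Tac1 was lost without control 1, control 2 or stimulated 2 (limma adjusted p = 0.0508, 0.143 and 0.0698), and those for Cck and Pdyn without control 2 (0.065 and 0.0695), while the log2 differences stayed at -1.07, -1.02 and -0.93 for Tac1, -0.43 for Cck and -0.80 for Pdyn.

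Penk, Calca and Calcb did not overlap between regions 3 and 4 but were not called over all 20 libraries, where their spread in brain libraries enters the error. Fitted on the 12 cord libraries alone, an alternative chosen after the data were seen, limma called 8 of 9: 6 lower and 2 higher, against 17.3% of all genes lower and 14.1% higher. In that fit Penk was 1.89-fold lower in region 4 (adjusted p = 0.000458), Calca 2.08-fold higher (adjusted p = 0.00431) and Calcb 1.59-fold higher (adjusted p = 0.00601). Over all 20 libraries the adjusted p of the same differences was 0.0669, 0.191 and 0.211. Vip was not called in either fit.

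**Figure D3:**
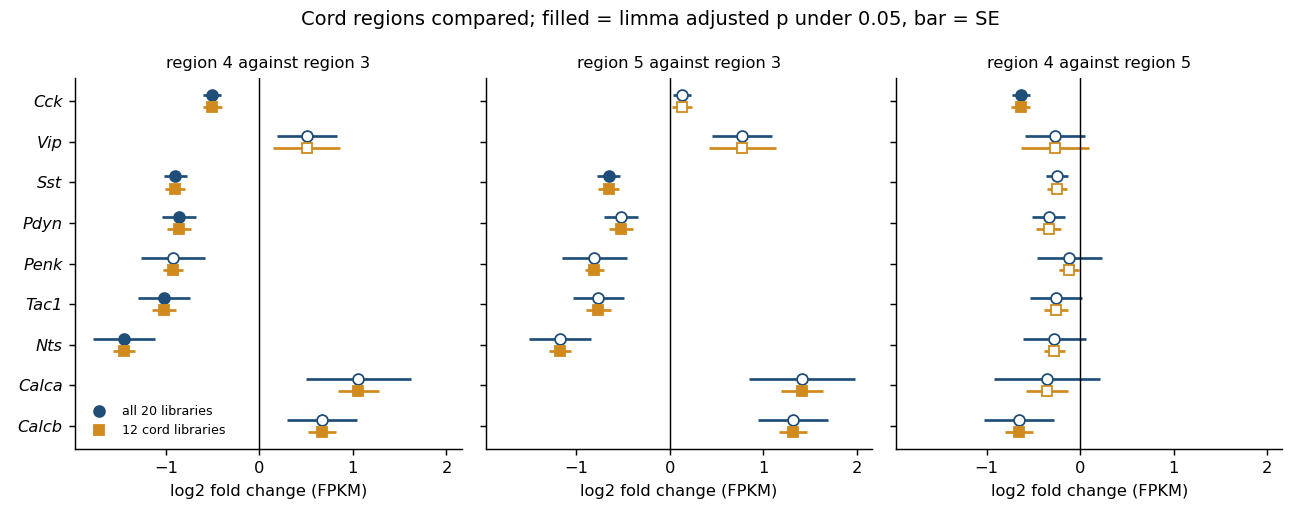
Log2 fold change in FPKM (horizontal) of the 9 genes (vertical) for region 4 against 3, region 5 against 3 and region 4 against 5; blue circles use all 20 libraries, orange squares the 12 cord libraries, bars are SE, and filled symbols passed limma adjusted p under 0.05. Sst, Pdyn, Penk, Tac1 and Nts lie left of 0 against region 3 in both left panels, Nts at -1.45 and -1.18, and Calca and Calcb lie right of 0, Calca at 1.06 and 1.41.

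Caudal cord against rostral cord gave the same 2 directions for most members. Over all 20 libraries limma called 1 of 9, Sst, which was 1.57-fold lower in region 5 (44.4 ± 4.87 against 69.7 ± 6.97 FPKM, log2 difference -0.65, SE 0.12, adjusted p = 0.00563), against 1.55% of all genes lower and 2.77% higher. Without control 2 or stimulated 1 the adjusted p for Sst was 0.0562 and 0.097. In the 12 cord libraries alone limma called 7 of 9, against 3.81% of all genes lower and 13.1% higher. The 5 lower were Nts (2.26-fold), Penk (1.75-fold), Tac1 (1.7-fold), Sst (1.57-fold) and Pdyn (1.44-fold), with adjusted p from 0.000785 for Nts to 0.0246 for Pdyn. The 2 higher were Calca (2.66-fold, adjusted p = 0.00534) and Calcb (2.5-fold, adjusted p = 0.00209). The same 7 did not overlap between the regions, 7 of 9 beside 25.5% of all genes.

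Cck did not follow Nts, Penk, Tac1, Sst and Pdyn here. It had 12.4 ± 1.57 FPKM in region 5 and 11.3 ± 1.0 in region 3, with overlapping libraries. The median log2 difference was -0.52 over the members and 0.11 over all genes. Upper-quartile scaling turned the split of all genes to 2.75% higher and 4.93% lower and quantile normalization to 2.86% and 4.43%, and either called 3 of 9 members.

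Between the injury site and the caudal cord, Cck and Calcb did not overlap, 2 of 9 beside 18.1% of all genes. Over all 20 libraries limma called Cck alone, 1.55-fold lower in region 4 (8.0 ± 0.87 against 12.4 ± 1.57 FPKM, log2 difference -0.64, SE 0.10, adjusted p = 0.00289), against 7.06% of all genes lower and 0.934% higher. Without control 1 or control 2 the adjusted p for Cck was 0.108 and 0.0548. In the 12 cord libraries alone limma also called Calcb, 1.57-fold lower in region 4 (adjusted p = 0.0222), so 2 of 9 were lower and 0 higher, against 14.2% and 1.94% of all genes. All 9 log2 differences were negative, from -0.65 to -0.12, with a median of -0.27, and the median over all genes was -0.14. That shift came to -0.03 after quantile normalization, which split all genes into 1.28% higher and 1.81% lower.

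Neuronal and phagocyte markers also differed between the cord regions. Of 11 pan-neuronal genes tested, such as Snap25, Syp and Rbfox3, 8 were lower in region 4 than in region 3 and 8 lower than in region 5 by limma, and their mean log2 FPKM was 6.63, 6.15 and 6.70 in regions 3, 4 and 5. In region 5 against region 3, where Sst, Penk, Tac1, Nts and Pdyn were lower in the cord libraries alone, 4 of the 11 were higher and 1 lower. Calca and Calcb were higher in region 4, where the neuronal genes were lower. Of 10 phagocyte and microglia genes, 7 were higher in region 4 than in region 3, with sums of 160 to 258 FPKM in region 3 and 466 to 1148 in region 4. The part of either in the peptide differences was not tested.

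Taken relative to the mean of the pan-neuronal genes in the same library, the members kept 3 courses from rostral to caudal. Cck was level, at -3.14 ± 0.11, -3.16 ± 0.04 and -3.07 ± 0.13 log2 units in regions 3, 4 and 5 (SD, n = 4). Sst went from -0.52 ± 0.11 to -0.93 ± 0.20 and -1.23 ± 0.13, Penk from -0.56 to -1.0 and -1.43, Tac1 from -1.87 to -2.41 and -2.70, and Nts from -3.42 to -4.39 and -4.66. Calca went from -2.73 ± 0.53 to -1.20 ± 0.29 and -1.39 ± 0.30, and Calcb from -4.32 ± 0.33 to -3.17 ± 0.25 and -3.07 ± 0.14. These are descriptions with no test. Cck thus kept level with the neuronal genes, while Sst, Penk, Tac1 and Nts had lower values relative to them in regions 4 and 5 than in region 3.

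**Figure D4:**
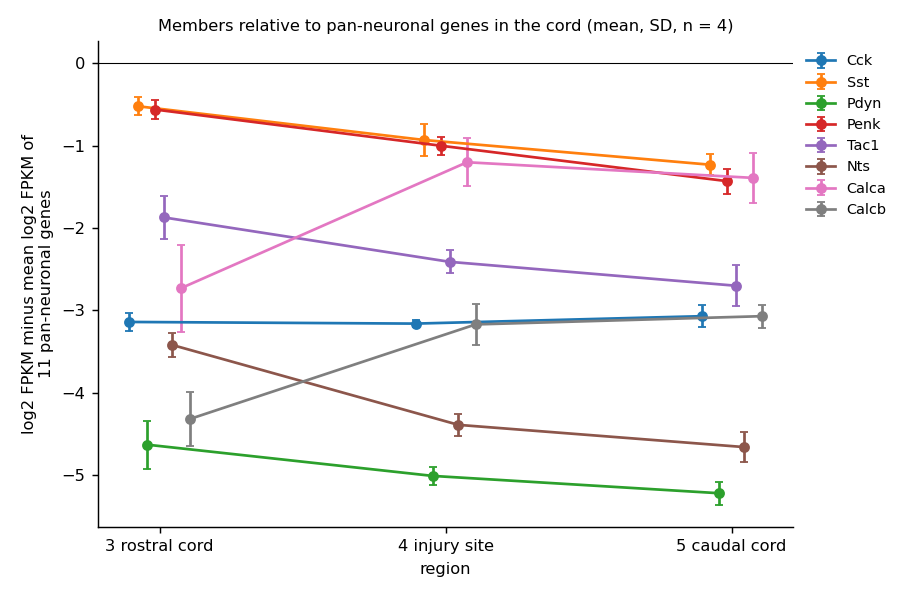
Log2 FPKM minus the mean log2 FPKM of 11 pan-neuronal genes (vertical, log2 units) in the 3 cord regions (horizontal); points are means of 4 libraries, bars SD, colours genes, and Vip is left out because it is under 1 FPKM in the cord. Cck is flat near -3.1, Nts runs from -3.42 to -4.66, and Calca from -2.73 to -1.39.

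Markers of the cells known to hold these peptides moved with some of the differences and not with others, beside the shares of all genes given above for each comparison. Of 10 GABAergic genes tested, 6 were lower in region 4 than in region 3 and none higher, but 1 was lower in region 5 than in region 3. Among 9 dorsal horn and glycinergic genes tested, 5 were lower in region 4 than in region 3 and 4 lower in region 5 than in region 3, with none higher. Lmx1b, a transcription factor of excitatory dorsal horn neurons, differed by -1.27 on the log2 scale between regions 4 and 3 (limma adjusted p = 0.00159). Slc17a6, the vesicular glutamate transporter of cord neurons, differed by -0.93 (limma adjusted p = 0.000412). Among 8 motor neuron and cholinergic genes, 5 were higher in region 5 than in region 3 and none lower: Isl2 (3.7-fold), Prph (2.86-fold), Chat (2.03-fold), Slc5a7 (2-fold) and Ahnak2 (1.88-fold). Prph is also on the sensory ganglion list. Of 12 genes of that list tested, 1 was higher and 0 lower in region 5 than in region 3, with a median log2 difference of 1.06. In region 4 against region 5, 0 of the 12 were higher and 3 lower, with a median of -1.14. Both medians pool control and stimulated rats. In region 5 the sensory ganglion list ran higher in stimulated rats, by a median log2 difference of 1.12. There 10 of the 12 did not overlap between groups, all higher with stimulation, beside 24.6% of all genes. In region 4 against region 3, where Calca and Calcb were higher in every library, 1 of the 8 motor neuron and cholinergic genes was higher and 0 lower, and of 12 sensory ganglion genes 0 were higher and 1 lower, with a median log2 difference of -0.06. The part of these cell types in the peptide levels was not tested.

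Other peptide genes gave counts in the same direction at the injury site. Of 16 other precursors, 7 were lower and 2 higher in region 4 than in region 3, with a median of -0.94 for the list, beside 12.8% of all genes lower and 6.78% higher. Crh differed by -2.20 (limma adjusted p = 0.0183), with region 3 libraries spread from 0.364 to 5.89 FPKM, and Nmu, the neuromedin U precursor, by -1.20 (limma adjusted p = 0.00119). Ucn, the urocortin precursor, was the exception with a log2 difference of 2.79 (limma adjusted p = 0.000399; 1.87 ± 0.68 against a mean of 0.306 FPKM), joined by Nucb2 (0.56, limma adjusted p = 0.00826). Of 18 processing and vesicle genes, 13 were lower and 0 higher, Qpct by -0.85 and Pcsk1 by -0.84 on the log2 scale. Of 23 receptors, 9 were lower and 0 higher, led by Sstr2 at -0.85 and Sstr3 at -0.75.

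Stimulated and control rats did not differ past the threshold in any member in any region. Limma called 0 of 9 in each of the 5 regions, and 0, 1, 0, 0 and 0 of 9 had an unadjusted p under 0.05 in regions 1 to 5. Over all genes limma called 0%, 0%, 0%, 0% and 0.0197% in regions 1 to 5, and 828, 215, 522, 341 and 546 genes had an unadjusted p under 0.05. An exact permutation test of 2 rats against 2 cannot reach the threshold. The median log2 difference of the members was 0.39, 0.20, 0.02, 0.09 and -0.10 in regions 1 to 5, beside -0.03, 0.08, -0.07, 0.00 and 0.05 over all genes. The test of a difference in the stimulation effect between regions likewise called 0 members.

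**Figure D5:**
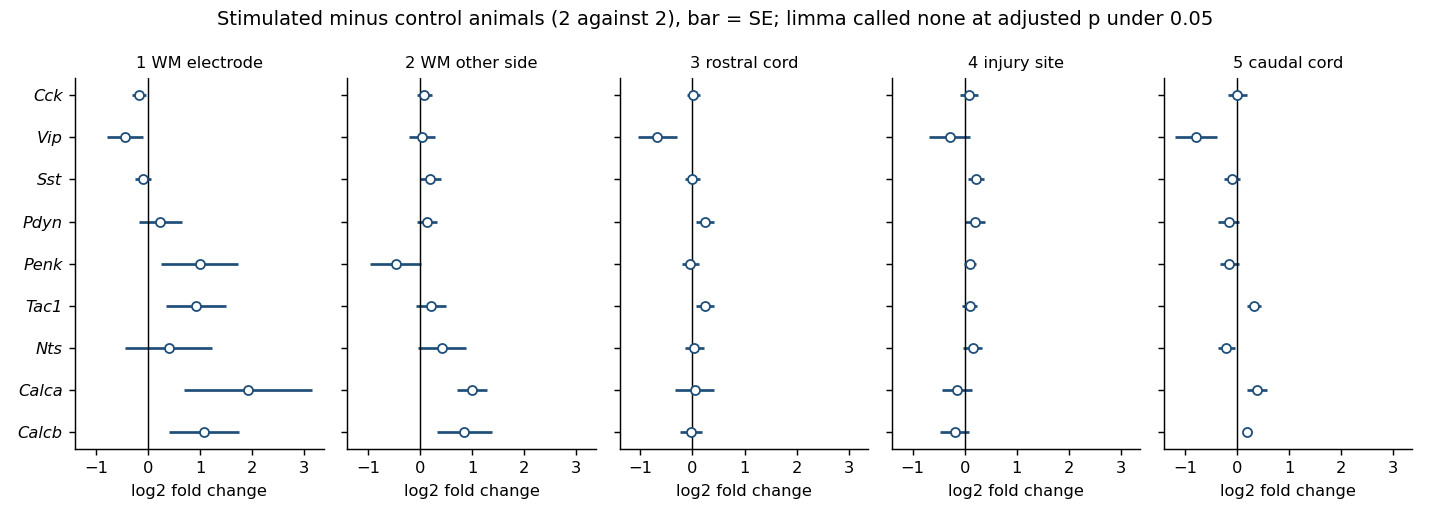
Log2 fold change in FPKM, stimulated minus control (horizontal), of the 9 genes (vertical) in the 5 regions; points are the difference of 2 against 2 animals, bars SE, and open points mean that limma did not call the gene. The widest bar is that of Calca in region 1, a difference of 1.93 with an SE of 1.23, and Nts, Penk and Calcb of region 1 follow.

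In region 1 the stimulated and control libraries of 2 members did not overlap, 2 of 9 beside 40.6% of all genes. Cck was 162 ± 1.38 in controls and 144 ± 6.31 in stimulated rats (SD, n = 2; log2 difference -0.17, SE 0.13, limma adjusted p = 0.712). Calcb was 0.111 in controls and 0.28 in stimulated rats, near the floor throughout (log2 difference 1.08, SE 0.67, limma adjusted p = 0.712). The larger mean differences of Penk, Tac1 and Calca rested on 1 stimulated library each, and their groups overlapped.

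Stimulated 1 carried the high Penk (52.1), Tac1 (12.8) and Pdyn (6.14) of region 1. In the same library all 12 striatal medium spiny neuron genes had their highest value of the 8 white matter libraries, with a sum of 189 FPKM against 56.6 to 86.6 in the others. Drd2, the dopamine receptor of enkephalin-bearing striatal neurons, was 4.05 there and 0.341 to 0.564 in the others, and Adora2a was 6.94 against 0.706 to 2.45. The 10 oligodendrocyte genes were also highest in it, with a sum of 3271. The part of either in the peptide values was not tested.

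Stimulated 2 carried the high Calca (4.18) and Calcb (0.433) of region 1 and also the highest values of both in region 2 (1.11 and 0.344). In its region 1 library the summed FPKM of the phagocyte and microglia genes was 533, the highest of the white matter libraries. All 10 of these genes were higher in both stimulated than in both control libraries of region 1, beside 40.6% of all genes without overlap. Among them, Lgals3 and Gpnmb had already been reported by the study as higher in region 1 with stimulation. The cortical glutamatergic neuron sum of 538 and the pan-neuronal sum of 1409 in the region 1 library of stimulated 2 were the lowest of the white matter libraries. The part of these in the Calca values was not tested. In the region 2 library of stimulated 2 the phagocyte and microglia sum was 334, against 48.7 to 55.9 in the other 3 libraries of that region. Sensory ganglion genes were mixed: their sum of 54.8 in the region 1 library of stimulated 2 was the lowest of the 8 white matter libraries. Ntrk2 alone averaged 58.2 FPKM in region 1, where the list summed to 54.8 to 67.4, so the sum mostly follows that gene. Of the 14 genes, 4 (Scn10a, Scn11a, Mrgprd and Pou4f1) were at the floor in all 8 white matter libraries. However, 3 of 14 had their highest value of the 8 in the region 1 library of stimulated 2. Another 2 had it in the region 2 library of the same rat. Among them were Ret at 1.88 in the first and Mrgprx3 at 2.57 in the second. In region 1 the list had 2 of 12 tested genes higher and 0 lower without overlap between stimulated and control libraries, beside 40.6% of all genes without overlap.

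In region 2 Calca alone did not overlap, 1 of 9 beside 27% of all genes. It was 0.451 in controls and 0.921 ± 0.27 in stimulated rats (log2 difference 1.00, SE 0.29, limma adjusted p = 0.949). In region 3 no member was without overlap, 0 of 9 beside 29.9% of all genes. In region 4 Sst (34.7 ± 5.04 in controls, 40.3 ± 1.29 in stimulated rats) and Penk (34.3 ± 0.81 and 37 ± 0.51) did not overlap, 2 of 9 beside 20.2% of all genes. Their log2 differences of 0.22 and 0.11 had SE of 0.15 and 0.11.

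Region 5 held the most members without overlap, 5 of 9 beside 24.6% of all genes, 3 higher and 2 lower with stimulation. Tac1 was 14.4 ± 1.81 in controls and 18 ± 1.62 in stimulated rats (log2 difference 0.33, SE 0.14, limma adjusted p = 1). Calca was 34.9 ± 3.13 and 45.9 ± 10.1 (log2 difference 0.38, SE 0.19, limma adjusted p = 1), and Calcb 11.6 ± 0.30 and 13.3 (log2 difference 0.20, SE 0.08, limma adjusted p = 1). Primary sensory neurons are known to make these peptides, and motor neurons are known to make CGRP. Sst, also a peptide of dorsal horn interneurons, overlapped between the groups (43 ± 7.63 in stimulated rats, 45.8 ± 2.29 in controls). Vip was lower at 0.551 against 0.887 (log2 difference -0.78, SE 0.40), and Nts at 3.86 against 4.43 (log2 difference -0.20, SE 0.16).

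Markers of sensory ganglion neurons moved with them in region 5. Of 12 such genes tested, 10 were higher in both stimulated than in both control libraries and none was lower, beside 24.6% of all genes without overlap. Limma called 0 of them. The list holds Trpv1, which the study had already reported as higher in region 5 with stimulation. Scn10a, a sodium channel of nociceptors, was 1.32 and 2.39 FPKM in stimulated rats and at the floor of 0.1 in controls, and Avil was 4.03 and 7.92 against 0.372 and 0.236. Over the list the summed FPKM was 148 and 179 in stimulated rats against 132 and 119 in controls. In regions 3 and 4 Scn10a was at the floor in every library, and Calca was 10.6 to 41.8 there. Scn10a is 1 gene of the list and did not exceed 2.39 FPKM in region 5, so its floor values say little about the list. Of the 14 genes listed, 4 were at the floor in control and 3 in stimulated libraries of region 3. In region 4 these counts were 3 and 4. Motor neuron and cholinergic genes of region 5 summed to 131.6 and 139.5 FPKM in stimulated rats against 118.4 and 112.8 in controls. Of 8 tested, 3 were higher and 0 lower without overlap, beside 24.6% of all genes. Prph is on both lists. The part of ganglion or motor neuron RNA in the Calca levels of regions 3 and 4 and in the region 5 differences was not tested.

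The genes whose levels ran most like each member were found by Pearson's r of log2 FPKM over the 20 libraries, as a description, since libraries share animals and the tissue contrast dominates. Cck was followed most closely by Kcnf1, Cobl and Ctxn1 (r = 0.995 each), and Vip by Trim9, Mef2c and Kcnmb4 (r = 0.989 to 0.986). Sst was most like Epha5 (0.964), Ccdc85a (0.958) and Gad2 (0.952), the last a GABA-synthesizing enzyme. Pdyn was most like Asic4 (0.921), Pde1b and Tpbg. Penk was most like Rasgrp2 (0.942), Dach1 and Zadh2, and Tac1 like Gpr101 (0.953), Ppp1r17 and Nppc. Nts was most like Nmu (0.982), Glra3 and Htr2c. Calcb was most like Fgf1 (0.990), Sncg (0.989) and Calca (0.987), and Calca was most like Calcb, Slc25a34 and Tmem82.

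Over the 12 cord libraries, where the tissue contrast is absent, the members themselves fell into the same 2 sets. Pearson's r was 0.97 between Sst and Penk, Sst and Nts, and Penk and Nts, 0.92 between Pdyn and Penk, 0.94 between Tac1 and Nts and 0.94 between Calca and Calcb. Calca ran opposite to Nts (r = -0.85) and Penk (r = -0.84). Cck stood between, with r of 0.45 to Penk and -0.05 to Calca. The gene most like each member in the cord was Hpca for Sst (0.982), Scn2a for Penk (0.982), Kcnc2 for Nts (0.978), Cntn3 for Tac1 (0.980), Doc2a for Pdyn (0.976), Cdadc1 for Cck (0.981), Thoc6 for Vip (0.928), Gcnt2 for Calca (0.977) and Cd24 for Calcb (0.982).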

How the data were processed

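RNA-seq libraries of 5 regions from 4 rats were analysed. The authors aligned paired reads to Rnor6 with TopHat2 2.1.0 and deposited FPKM values per gene from Cufflinks 2.2.1, with values under 0.1 raised to 0.1 and without quantile normalization. The table holds no read counts, so depth per library is not used. Summed FPKM per library was 191481 to 290718. Ribosomal RNA was depleted, and the strand setting of the estimation is not given in the sources used here, so overlapping and antisense genes are uncertain. Every column carried the title of its sample (0 without one).

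FPKM values were log2-transformed, and 15210 of 30443 genes with at least 1 FPKM in any library were kept. Differences were tested with limma 3.58.1 in R 4.3.3 (eBayes with trend, two-sided, tested on simulated data), with a mean per region over 20 libraries for regions and within the 4 libraries of a region for stimulation. P-values were adjusted by Benjamini-Hochberg over all genes kept, with 0.05 as the threshold. Other steps used Python 3.11.15, numpy 2.4.6, pandas 2.3.3 and matplotlib 3.10.9. All members are named; fold changes with errors are given where a member passed the threshold or, for stimulation, where groups did not overlap. Of other lists, up to 2 genes with the largest change per direction, the members' receptors and markers beside a result are named. Scn10a, Avil and Drd2 stand as examples of marker lists. The members and lists were chosen with earlier results of these data known. Nothing states that control and stimulated rats of 1 number share a litter or day, so the main fit did not pair them by number. Deviations of same-numbered rats correlated at -0.213 to 0.321, which cannot exclude such sharing. Libraries of the same rat deviated together at r = 0.651 between regions 1 and 2, and at -0.139 to 0.229 between other regions. The main fit of regions held no term for the rat, so its p-values treat libraries of the same rat as independent. Separate rats are the replicates between groups, with n = 2. Alternatives were other floors, filters, scalings, variance settings, blocks, each rat left out, and fits within a tissue. A gene of a marker list is not reported here and is left out of that list's values.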

Additional observations from a re-analysis of the deposited data

Results flagged for a closer look

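Dixon's test over the 4 libraries of each region was run on 45 sets of values (9 members in 5 regions), and 4 had a library far from the other 3. Chance gives such a result in about 5% of independent sets of normally distributed values. These sets were not independent, so the 5% is no direct yardstick for them. Pearson's r of log2 FPKM over 20 libraries was 0.99 between Calca and Calcb and 0.88 between Penk and Tac1. All 4 flagged values were in region 1 and in stimulated rats. Stimulated 1 had 52.1 FPKM of Penk, the enkephalin precursor, against 11.8 to 14.4 in the other 3 libraries, and 12.8 of Tac1, the substance P precursor, against 3.47 to 4.58. Stimulated 2 had 4.18 FPKM of Calca against 0.252 to 0.53, and 0.433 of Calcb against 0.1 to 0.126. The striatal, oligodendrocyte and phagocyte marker values of these libraries stand beside the region 1 results. No difference in the stimulation effect between regions passed the threshold for any gene.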

How the results depend on the processing

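The 26 named log2 fold changes gave 385 values under the alternatives: 374 kept direction and side of the threshold, 11 kept direction only and 0 reversed. The stimulation differences among them were named because the groups did not overlap. Leaving out a rat or changing the floor or pseudocount could therefore not reverse them. None of them was called in the main fit, so their staying uncalled says little about their stability. Counts of members called moved as follows. For region 4 against 3 (5 called), leaving out 1 rat gave 2 to 6, and the 12 cord libraries alone gave 8 with and without the rat as replicate block. For region 4 against 5 (1 called), log2(FPKM + 1), a floor of 0.5 and the cord libraries alone, with or without the replicate block, gave 2, and leaving out 1 rat 0 to 1. For region 5 against 3 (1 called), log2(FPKM + 1) gave 4, a floor of 0.5 gave 3, quantile and upper-quartile scaling 3, the rat as replicate block over all libraries 2, control rats alone 0, the cord libraries alone 7 with or without the replicate block, and leaving out 1 rat 0 to 3. In control rats alone the limma adjusted p was 0.0962 for Nts in region 4 against 3 and 0.21 for Sst in region 5 against 3. White matter against cord kept 9 called and region 1 against 2 kept 0 under every alternative run. With the replicate number as block, stimulation called 0 members in each region (443 genes overall in region 5). Calcb under stimulation in region 1 gave no value at a floor of 0.5, since all 4 libraries lie under it. With n = 2 rats a group and no read counts, small stimulation effects were not detectable, and large ones could also go uncalled. Calca in region 1, for example, differed by 1.93 on the log2 scale with an SE of 1.23 and was not called.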
